A study of Homo sapiens with 6 samples.

Results

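Histone genes were followed in RNA-seq libraries of HGC-27 cells, a human line from an undifferentiated gastric carcinoma, with and without a peptide called GLUP. Members were chosen by symbol: protein-coding genes whose symbol begins with H1-, H2AC, H2BC, H3C or H4C, and in addition H2AZ1, H2AZ2, H2AX, H3-3A, H3-3B and MACROH2A1. The 73 members reported here are among the 62443 genes of the table, and 63 of them were replication-dependent, 7 were variant (replication-independent) and 3 were linker histones of the germ line (H1-6, H1-7 and H1-8), which were at 0 in every library.

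The study asked what GLUP, a cyclic peptide made from the TEAD-binding part of VGLL4, does to transcription in these cells, TEAD4 being a DNA-binding factor of the Hippo pathway. The 6 libraries were 3 of the group Con and 3 of the group GLUP. According to the labels Con cells had no treatment, whereas the methods of the study name the storage buffer of the peptide as control. The dose and the length of treatment are not in the labels, and both groups are the same unmodified cell line in serum-containing medium.

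Histones are the proteins around which DNA is wound: H2A, H2B, H3 and H4 form the core of the nucleosome, and H1 binds the DNA that enters and leaves it. The replication-dependent genes lie in clusters, mainly on chromosomes 6 and 1, are transcribed as DNA is copied in S phase, and give mRNAs that end in a short stem-loop and not in a poly(A) tail. Variant histones are made from single genes, many with introns and most with polyadenylated mRNAs, throughout the cell cycle, and they replace the core histones at particular places: H3.3, made from both H3-3A and H3-3B as the same protein, at active genes, and H2A.Z, made from H2AZ1 and H2AZ2, around promoters.

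The 3′ stem-loop is shown because it is typical of replication-dependent genes. RNA without a poly(A) tail is also recovered differently by different library preparations. The pattern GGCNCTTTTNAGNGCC (N stands for any base) was searched on the sense strand in the last 200 bases of each gene's canonical transcript in GENCODE release 44 lifted to GRCh37. It was found in 57 of 63 replication-dependent genes, 1 to 11 bases from the annotated end, in 1 of 3 germline H1 genes and in 0 of 7 variant genes, against 61 of 19731 protein-coding genes in all (0.309%). Capitals below mark the stem and lower case the loop.
The form of H1-2, H1-4, H1-5, H2AC14 and H3C11, shared by 36 members: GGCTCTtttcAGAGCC
The form of H4C3 and H4C8, shared by 8 members: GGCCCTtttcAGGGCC
The form of H2BC12, shared by 8 members: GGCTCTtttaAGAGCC
The form of H4C14 and H4C15, shared by 4 members: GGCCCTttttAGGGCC
The form of H2AC20, seen in 1 member: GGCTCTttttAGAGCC
The stems shown differ at a single base pair and the loops at their last base, so that H4 genes of highest level (H4C3) and of largest negative difference (H4C8) carried the same 16 letters. No match was found in H2AC15, H2BC10, H2BC12L, H2BC21, H3C6 and H4C13, nor in any variant gene. This says only that these letters are not in that window of the canonical transcript. Other transcripts of a gene, and bases further from the end, were not searched. For H2AX the transcript searched was 1592 bases long.

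The promoters of H3-3A and H3-3B are shown because both genes encode H3.3 and their levels lay apart in opposite directions. Sequences are from RefSeq on GRCh38.p14, 250 bases before to 50 after the start of the gene, written 5′ to 3′ on the strand of the gene. Capitals mark every match, on either strand, to CCAAT (the box bound by NF-Y), TATAAA (the box at which TBP binds) or GGAATG (the core of M-CAT, the element that TEAD factors bind).
H3-3A, chr1:226061581-226061880, plus strand: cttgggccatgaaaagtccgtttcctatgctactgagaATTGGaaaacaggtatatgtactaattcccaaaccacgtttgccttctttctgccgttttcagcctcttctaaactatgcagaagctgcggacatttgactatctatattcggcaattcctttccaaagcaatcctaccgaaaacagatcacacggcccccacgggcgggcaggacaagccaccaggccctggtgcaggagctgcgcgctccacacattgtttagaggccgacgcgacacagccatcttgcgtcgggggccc
H3-3B, chr17:75779730-75780029, minus strand: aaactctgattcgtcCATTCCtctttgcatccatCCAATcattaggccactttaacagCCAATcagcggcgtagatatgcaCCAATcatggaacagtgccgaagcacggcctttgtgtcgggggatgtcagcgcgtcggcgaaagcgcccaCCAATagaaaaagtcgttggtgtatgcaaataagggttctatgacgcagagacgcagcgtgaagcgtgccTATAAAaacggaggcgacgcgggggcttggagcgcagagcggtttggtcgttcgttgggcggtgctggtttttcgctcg
The window of H3-3B held 4 CCAAT boxes, TATAAA at position -29 from the start and GGAATG at -235 on the other strand. That of H3-3A held 1 CCAAT box and neither of the others. Among the histone promoters in the RefSeq table, 57 were replication-dependent and 7 variant. CCAAT was present in 84.2% of the former, 71.4% of the latter and 35.7% of all 27305 promoters of this length. TATAAA was present in 66.7%, 57.1% and 12%, respectively. GGAATG was present in 5 replication-dependent promoters (8.77%), in 1 variant promoter and in 14% of all promoters. The replication-dependent promoters also held TTTCGCGC, a form of the E2F site, in 21.1% against 0.546% of all promoters, and AAACACA, an element of H1 promoters, in 14% against 5.76%, and the variant promoters held neither. These windows are not all separate promoters. Those of H2A and H2B genes lying head to head overlap, as for H2AC11 and H2BC11, so that a site such as TTTCGCGC can be counted for both genes. H3C4 and H2AC7 have the same window, and the windows of H4C14 and H4C15 have the same letters. A match of letters is a description and not evidence of binding.

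Levels are FPKM, fragments scaled to transcript length and to the mapped total of the library, as the authors deposited them. FPKM totals were 909735 to 965147 per library, the read depth behind them is unknown, and mitochondrially encoded genes held 21.9% to 29.7%. The libraries did not separate cleanly by group: over tested genes Con replicate 3 correlated with the GLUP libraries at Pearson r of 0.98 to 0.984 and with Con replicate 2 at 0.905, and Con replicate 2 correlated with the GLUP libraries at only 0.872 to 0.894. The deviation of a gene from its own mean went with its GC content, with a Spearman correlation across genes of -0.601 in Con replicate 2 and -0.343 in Con replicate 1, but 0.458 in Con replicate 3 and 0.340 to 0.544 in the GLUP libraries. Median GC content was 58.2% for the 63 replication-dependent genes and 44.7% for the variant genes, against 47.2% for all genes tested, so results are also given without Con replicate 2 or 3 and as GC-adjusted values, for which a smooth trend in GC and transcript length was taken out of each library. Of the mesenchymal markers, VIM stood at 222 to 387 FPKM, FN1 at 0.644 to 3.25 and CDH2 at no more than 0.0508. EPCAM (at most 0.124) and CDH1 (at most 0.0799) were near 0, and TFF1, TFF2 and GKN1 were at 0. The keratins KRT8, KRT18 and KRT19 were low (0.764 to 2.51 FPKM), with every GLUP library above every Con library, as for 7.55% of all genes tested. Their GC content was 58.2% to 61.8%, and no GC-adjusted values of the markers are given. FN1, CDH1 and CDH2 had every GLUP library below every Con library, as for 22.7% of genes tested and 5.77% of genes under 1 FPKM. CDH1 and CDH2 were near 0 in Con and at 0 in GLUP. The leukocyte genes PTPRC, CD3E, CD68 and LYZ reached at most 0.25, while all 4 fibroblast genes were detected, with LUM at 47.2 to 76.7, DCN at 16 to 41.3 and COL1A1 at 2.86 to 6.90. The part of these markers in the histone values was not tested, and in bulk RNA fewer cells of a type and less RNA per cell cannot be told apart.

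Of the 73 members, 65 were above 0 in at least 1 library and 31 averaged 1 FPKM or more over the 6 libraries, the minimum for testing, which 7406 genes reached. H4C4 (mean 1.05) and H2AC13 (1.84) lay just inside it, and H2AX (0.966) and H4C5 (0.839) just outside. With limma on log2(FPKM + 1), no histone gene passed an adjusted p of 0.05 (Benjamini-Hochberg over all genes tested), and neither did any gene of the table (0% called). At an unadjusted p under 0.05, 2 histone genes were higher in GLUP (H3-3A and H3C11), where 4.46% of all genes were, and 3 were lower (H3-3B, H4C8 and H4C14), where 17.2% of all genes were. Without Con replicate 3, an adjusted p under 0.05 was reached by 3 histone genes, all lower (H3-3B, H4C8 and H4C14), beside 16.3% of all genes lower and 2.2% higher. Without Con replicate 2 it was reached by none of the 31, beside 0.0405% of all genes lower, and with GC-adjusted values by none of the 31, beside 0.027% of all genes lower.

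Of the 5 variant histones tested, 4 had a lower mean in the GLUP libraries than in Con and H3-3A a higher one, none past the adjusted threshold (see the plot of variant levels by library). The groups did not overlap for 4 of the 5: H2AZ1, MACROH2A1 and H3-3B were lower in each GLUP library than in any Con library, which held for 22.7% of all genes, and H3-3A was higher, which held for 7.55%. Their median difference was -0.40 on the log2(FPKM + 1) scale, beside -0.23 for all genes tested, and the differences ranged from -1.30 to 0.75. Together the 7 variant genes held 1.84%, 2.16% and 1.46% of the FPKM total in Con and 1.26%, 1.33% and 1.17% in GLUP.

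**Figure D1:**
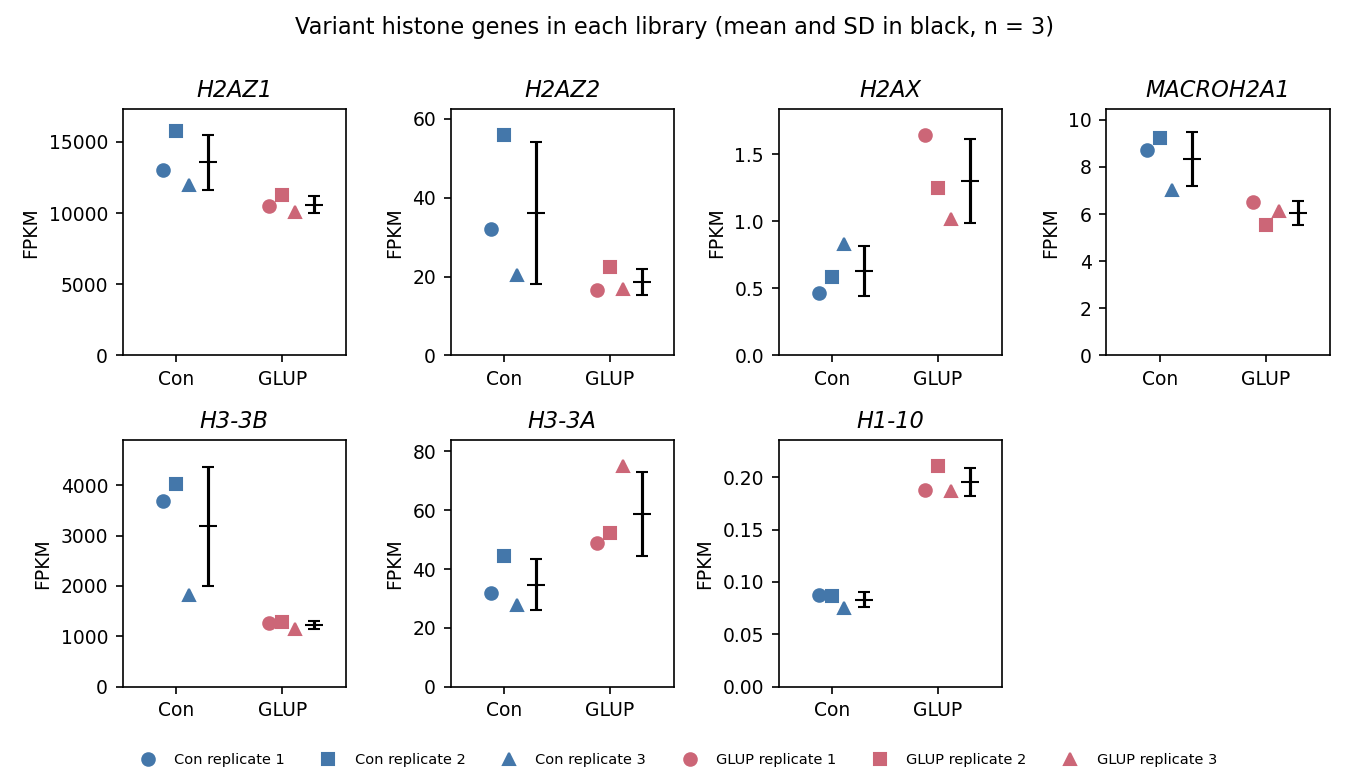
Level of each of the 7 variant histone genes, in FPKM on linear axes from 0, in each library (blue, Con; red, GLUP; symbols mark the replicate), with the mean and SD of each group in black (n = 3). For H3-3B the 3 GLUP libraries lie between 1136 and 1278 FPKM, below all Con libraries, and for H3-3A they lie between 48.9 and 75.1, above all Con libraries.

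The widest difference among the variants was in H3-3B (chr17:73772515-73781974, GRCh37, minus strand). Of the deposited FPKM of both H3.3 genes, of which H3-3A is hard to count, nearly all was in H3-3B. Its FPKM were 3685, 4033 and 1824 in the Con libraries (replicates in order) and 1258, 1278 and 1136 in GLUP. The GLUP libraries lay close together and all below Con replicate 3, which itself was less than the other Con libraries. The difference was -1.30 (SE 0.32), with an adjusted p of 0.194 by limma. Without Con replicate 3 it was -1.66 with a limma adjusted p of 0.0285, and without Con replicate 2 it was -1.08 (0.13). GC-adjusted it was -0.86 (0.188), where the groups still did not overlap, as for 13.7% of all genes with GLUP lower. H3-3B overlaps UNK on the other strand, and whether counting used strand is not stated, so reads of both genes may not have been told apart.

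H3-3A (chr1:226249552-226259720, plus strand), the other source of H3.3, went the other way at a far lower level. Its FPKM were 32, 44.3 and 27.7 in Con and 48.9, 52.3 and 75.1 in GLUP, with every GLUP library above every Con library. The difference was 0.75 (SE 0.32, adjusted p = 0.219), and 1.18 (0.164) after GC adjustment. The ratio of H3-3B to H3-3A was therefore 115, 91.0 and 66.0 in Con and 25.7, 24.4 and 15.1 in GLUP. The summed level of both genes was 3717, 4077 and 1852 FPKM in Con and 1307, 1330 and 1211 in GLUP, so that the groups did not overlap in the sum either. The ratio and the sum were not tested. H3-3A is a hard gene to count: 78.7% of the 25-base words of its canonical transcript recur in the transcripts of 33 other genes, against 17.2% for H3-3B. Its processed pseudogene H3P6, which shares 37% of them, stood at 10.5, 12.8 and 11.5 FPKM in Con and 16.5, 18.5 and 15.6 in GLUP (0.50, adjusted p = 0.281), and the pseudogenes H3P16 and H3P36 had differences of 0.63 and 0.74, so the value of H3-3A is uncertain.

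H2AZ1 (chr4:100869243-100871512, minus strand) was the most abundant histone gene by far, ranking 8th to 19th of all genes and holding 1.04% to 1.71% of each FPKM total. It stood at 12991, 15733 and 11967 FPKM in Con and at 10492, 11242 and 10051 in GLUP. The groups did not overlap, but by a narrow margin. The difference of -0.35 (SE 0.19, adjusted p = 0.282) was close to the median of all genes, and was -0.04 after GC adjustment, where the groups overlapped, and -0.05 after rescaling by the trimmed mean of log ratios. H2AZ2 (chr7:44866390-44887686, minus strand), which encodes the second H2A.Z protein, was far lower, at 32.1, 55.8 and 20.4 FPKM in Con and 16.7, 22.5 and 16.8 in GLUP, and its groups overlapped. Its difference was -0.82 (SE 0.38, adjusted p = 0.244), -0.45 without Con replicate 2 and -1.15 (0.0502) without Con replicate 3. After GC adjustment the difference of H2AZ2 was -0.39 (limma adjusted p = 0.455), and after rescaling by the trimmed mean of log ratios it was -0.52 (0.374). The ratio of H2AZ1 to H2AZ2 ranged from 282 to 587 in Con and from 501 to 627 in GLUP, with overlap.

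MACROH2A1 (chr5:134670071-134735604, minus strand) encodes macroH2A1, an H2A variant with a large additional domain, known from silent chromatin such as the inactive X. Its FPKM were 8.73, 9.22 and 7.02 in Con and 6.53, 5.53 and 6.11 in GLUP, without overlap, and the difference was -0.40 (SE 0.27, adjusted p = 0.359). After rescaling by the trimmed mean of log ratios it was -0.13. H2AX (chr11:118964584-118966175, minus strand), whose protein is phosphorylated at DNA breaks, was below the minimum for testing, at 0.465, 0.588 and 0.829 FPKM in Con and 1.64, 1.25 and 1.02 in GLUP. Each GLUP library lay above each Con library, as for 3.41% of all genes above 0 and under 1 FPKM. The fit without a minimum gave 0.50 (SE 0.17, unadjusted p = 0.0228 and adjusted p = 0.589 by limma). H1-10, a linker histone variant, was barely detected, at 0.0749 to 0.0879 FPKM in Con and 0.187 to 0.211 in GLUP. The GC content was 66.8% for H2AX and 68.6% for H1-10, and neither has a GC-adjusted value.

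Replication-dependent histones lay on both sides of 0. Of the 26 tested, 16 had a higher and 10 a lower mean in GLUP on the log2 scale, while 34.5% of all genes had a higher mean. The median difference was 0.14 (all genes, -0.23) and the range -1.10 to 0.95. This split depended on the scaling, with 20 higher and 6 lower after rescaling by the trimmed mean of log ratios (median 0.38, all genes -0.01) and 11 higher and 15 lower after GC adjustment (median -0.10, all genes 0.01). It was 12 higher and 14 lower without Con replicate 3 (median -0.06, all genes -0.32) and 19 and 7 without Con replicate 2 (median 0.33, all genes -0.19). The groups did not overlap for 3 of the 26, with H3C11 and H4C9 higher (all genes, 7.55%) and H4C8 lower (all genes, 22.7%). H4C9 and the other genes that no rule had named are mentioned after their values were seen. By class the median difference was 0.29 for H1 (4 of 5 genes tested), 0.01 for H2A (7 of 15), 0.15 for H2B (5 of 17), 0.31 for H3 (2 of 13) and 0.06 for H4 (8 of 13). By position it was 0.15 for chromosome 6 (22 of 50) and -0.30 for chromosome 1 (4 of 11), and neither of the 2 genes elsewhere reached the minimum.

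**Figure D2:**
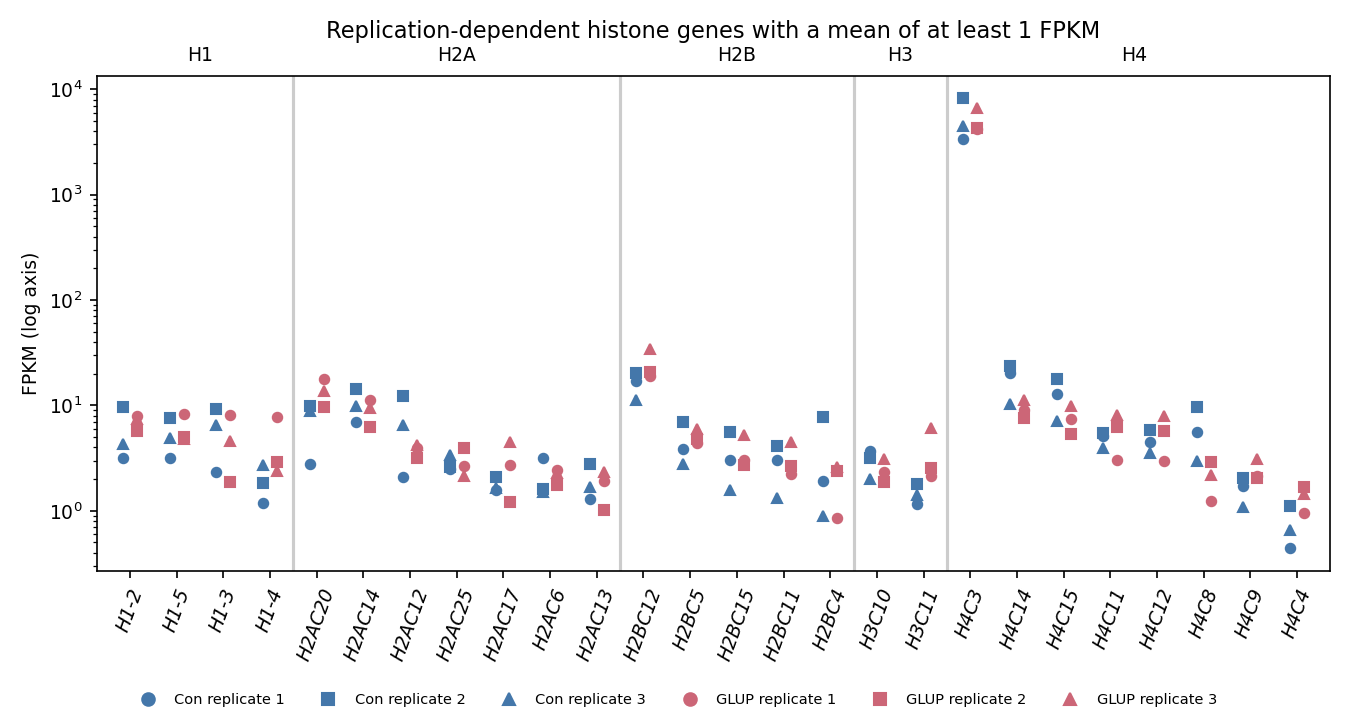
Level of the 26 tested replication-dependent histone genes by class, in FPKM on a log axis, in each library (blue, Con; red, GLUP; symbols mark the replicate). H4C3 lies between 3365 and 8221 FPKM, and no other gene exceeds 34.1.

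A single gene, H4C3 (chr6:26104161-26104565, plus strand), made up nearly all of the replication-dependent signal. It encodes histone H4, as do the other H4C genes. H4C3 stood at 3365, 8221 and 4469 FPKM in Con and at 4214, 4272 and 6594 in GLUP. The groups overlapped fully, with the highest and the lowest value both in Con. The difference was -0.02 (SE 0.34, adjusted p = 0.973), and it was 0.28 after rescaling by the trimmed mean of log ratios and 0.34 without Con replicate 2. H4C3 held 96.5% to 97.7% of the FPKM of all 63 genes in each library and was 168 to 397 times as high as the next of them. Only 2.36% of its 25-base words recur elsewhere, and its locus lies within the longer annotated span of H2BC4. The 62 remaining genes summed to 121, 198 and 110 FPKM in Con and 145, 125 and 176 in GLUP.

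Below H4C3, 4 further genes had a mean over 10 FPKM, and the remaining 21 tested lay between 1 and 10. H2BC12 (chr6:27114140-27114634, minus strand), an H2B gene, read 17.2, 20.1 and 11.3 FPKM in Con and 18.9, 20.9 and 34.1 in GLUP. The difference of 0.57 (SE 0.35, limma adjusted p = 0.322) was 0.34 without Con replicate 3, 0.32 without GLUP replicate 3 and 0.36 after GC adjustment. Of its 25-base words 75.8% recur in other genes, so its value is uncertain. H4C14 (chr1:149804221-149811339, plus strand) read 20.1, 23.6 and 10.4 in Con and 9.07, 7.62 and 11.3 in GLUP, and H4C15 (chr1:149825607-149832725, minus strand) 12.8, 17.7 and 7.19 against 7.49, 5.37 and 9.95. In both of these H4 genes Con replicates 1 and 2 were high, and Con replicate 3 lay among the GLUP libraries. Their differences were -0.82 (SE 0.35, adjusted p = 0.218) and -0.61 (SE 0.37, 0.318), and without Con replicate 3 they were -1.16 (0.0354) and -0.93 (0.0758). Without Con replicate 2 they were -0.60 and -0.34, and that of H4C15 was -0.41 without GLUP replicate 2. After GC adjustment they were -1.08 and -0.87, with limma adjusted p of 0.228 and 0.293. The groups of H4C14 then did not overlap, as for 13.7% of all genes with GLUP lower, while those of H4C15 did. The annotated transcripts of H4C14 and H4C15 share 100% of their 25-base words. These genes cannot be told apart by sequence and are best read as a single measurement.

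H4C8 (chr6:26277837-26285866, minus strand) had the largest negative difference among the replication-dependent genes. It stood at 5.55, 9.60 and 2.94 FPKM in Con and at 1.25, 2.88 and 2.20 in GLUP, where the gap between the lowest Con and the highest GLUP library was small. The difference was -1.10 (SE 0.38, adjusted p = 0.198). Without Con replicate 3 it was -1.46 (limma adjusted p = 0.0342), and without Con replicate 2 it was -0.74 (0.245). GC-adjusted it was -1.14 (0.199), where the groups still did not overlap, as for 13.7% of all genes with GLUP lower. Only 2.6% of its 25-base words recur in other genes. Its promoter was among the 5 of its kind with GGAATG, at position -207, and the others did not share a direction. H1-3 had a difference of -0.27 with overlapping groups, and H2BC3 was at most 0.00382 FPKM. Below the minimum, H3C7 was higher in every GLUP library (mean 0.385 FPKM in Con, 1.04 in GLUP). H4C13 was lower in every GLUP library (0.598 in Con, 0.142 in GLUP).

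At the other end stood H2AC20, H3C11 and H1-4, which encode an H2A, an H3 and the linker histone H1.4. H2AC20 (chr1:149858468-149858961, plus strand) read 2.77, 9.89 and 8.90 FPKM in Con and 17.7, 9.61 and 13.6 in GLUP, and its difference of 0.95 (SE 0.43, adjusted p = 0.236) leaned on the low value of Con replicate 1, without which it was 0.46. H3C11 (chr6:27839623-27840124, minus strand) read 1.15, 1.80 and 1.40 in Con and 2.13, 2.55 and 6.15 in GLUP, with a difference of 0.82 (SE 0.33, adjusted p = 0.204) that was 0.45 without GLUP replicate 3. Its groups did not overlap, but they did after GC adjustment (0.58). H1-4 (chr6:26156557-26157343, plus strand) read 1.18, 1.82 and 2.70 in Con and 7.83, 2.89 and 2.41 in GLUP. The difference of 0.79 (SE 0.38, limma adjusted p = 0.253) was 0.36 without GLUP replicate 1 and 0.52 after GC adjustment. The 3 remaining genes among the 8 of highest level were H2AC14 (-0.17), H1-2 (0.37) and H1-5 (0.21), with adjusted p of 0.763, 0.528 and 0.711 and overlapping groups, and that of H1-2 ranged from 0.08 without Con replicate 1 to 0.76 without Con replicate 2. Summed over the 13 H3 genes, the level was 8.29, 8.57 and 6.31 FPKM in Con and 9.06, 10.9 and 15 in GLUP. Of the 5 classes (H4 taken without H4C3) it was the one whose sums did not overlap between the groups. The sums were not tested and not GC-adjusted, and H3C11 held 6.15 of the 15 in GLUP replicate 3. Only 2 of the 13 H3 genes reached the minimum, and 0 of them were without overlap after GC adjustment (all genes, 14.5% higher and 13.7% lower). The H3C genes thus held a few FPKM, against 1136 or more for H3-3B.

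**Figure D3:**
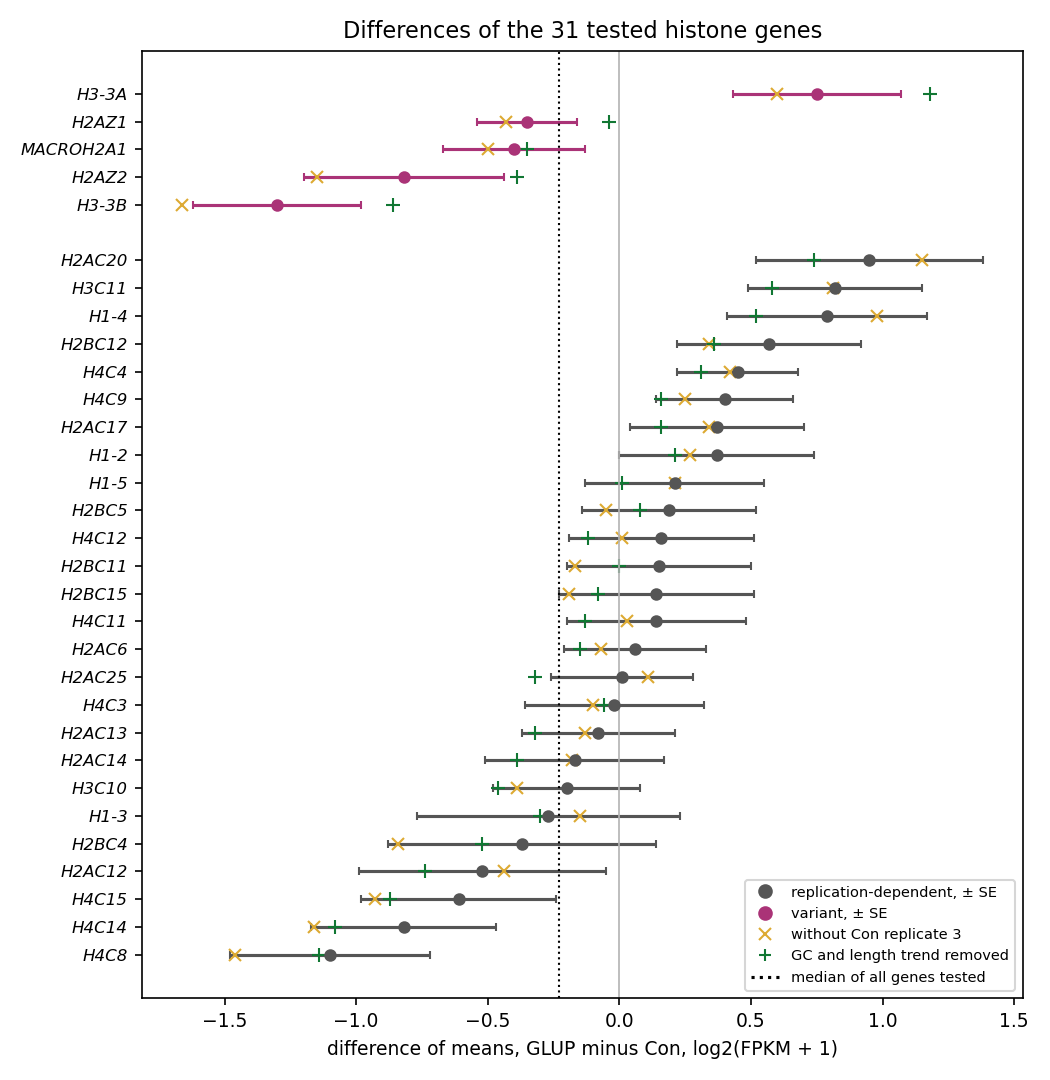
Difference of group means (GLUP minus Con) on the log2(FPKM + 1) scale for the 31 tested histone genes, with variant genes above and replication-dependent genes below; circles with bars are the difference and its SE, crosses leave out Con replicate 3, plus signs are GC-adjusted, and the dotted line is the median of all genes tested (-0.23). H3-3A (0.75) and H3-3B (-1.30) lie at opposite ends of the variant genes, and the replication-dependent genes spread over both sides of 0, from -1.10 for H4C8 to 0.95 for H2AC20.

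The highest and lowest values of the replication-dependent genes were spread unevenly over the libraries. Con replicate 2 held the highest value for 12 of the 26 tested genes and the lowest for 0, GLUP replicate 3 held the highest for 7, and Con replicate 1 held the lowest for 8. The spread on the log2 scale was larger within Con than within GLUP for 18 of the 26 (median SD 0.49 against 0.39). It was also larger for 5 of the 5 variant genes (0.34 against 0.10). The matching shares over all genes were not computed, so these counts are not particular to histones. Con replicate 2 stood apart over all tested genes too, with Pearson r of 0.872 to 0.934 with the other libraries. Of the 37 genes below the minimum, 5 were at 0 in all libraries and 19 were at 0 in at least 1. Of the 32 above 0, 23 had a higher mean in GLUP (71.9%) and 9 a lower one, where 48.1% of the 24038 genes of such low level had a higher mean. The groups did not overlap for 7 of the 32 with GLUP higher (21.9%, against 3.41% of the low genes) and for 1 with GLUP lower (3.12%, against 5.77%). All of these are levels under 1 FPKM with unknown counting error, and were not tested. The low genes used for comparison include any that were above 0 in at least 1 library. No GC-adjusted values were made below the minimum, while the median GC content of the 63 replication-dependent genes was 58.2%. Among the 26 tested, the 2 higher and 1 lower without overlap became 0 and 2 after GC adjustment. Over all genes tested, 14.5% were higher and 13.7% lower without overlap after that adjustment. Many of these genes are near copies of each other: the tested ones shared a median of 27.3% of their 25-base words with other genes, and 8 of them over 50%. H4C11 and H4C12, for example, shared 92.6% and 93.1%, and their differences were 0.14 and 0.16.

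H2A and H2B genes often lie head to head with a common promoter region. There were 10 such pairs, with starts 170 to 251 bases apart, and both genes were tested in 2 of them. H2AC6 and H2BC4 had differences of 0.06 and -0.37, and H2AC12 and H2BC12 of -0.52 and 0.57. The levels within a pair were often far apart, as for H2AC20 (mean 10.4 FPKM) and H2BC21 (0.0913), or H2AC14 (9.65) and H2BC14 (0.0508).

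**Figure D4:**
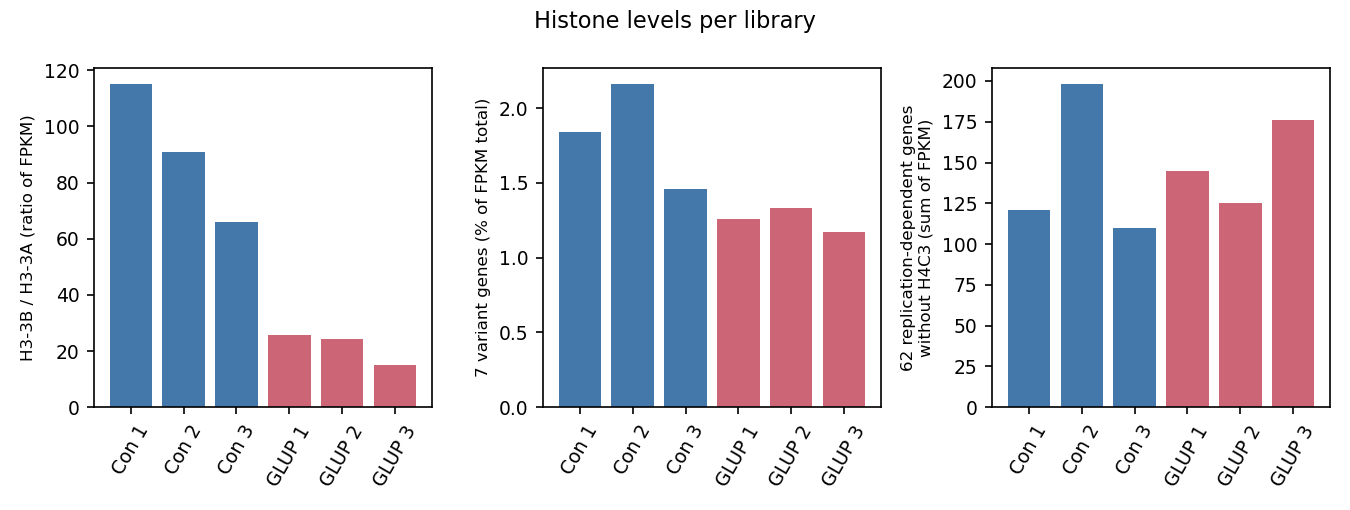
Histone levels in each library (blue, Con; red, GLUP), from left to right the ratio of H3-3B to H3-3A, the share of the FPKM total held by the 7 variant genes in percent, and the summed FPKM of the 62 replication-dependent genes other than H4C3; bars start at 0 and are single libraries, without error bars. The ratio is 66.0 or more in Con and 25.7 or less in GLUP, whereas the sums of the replication-dependent genes overlap between the groups.

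Genes that act on histones were read from lists, and none of their members passed an adjusted p of 0.05 by limma. Over all genes tested, for comparison, 34.5% had a higher mean, the median was -0.23, and an unadjusted p under 0.05 was reached by 4.46% higher and 17.2% lower. Without Con replicate 3 each of the 6 genes named below for the first 3 lists had an adjusted p under 0.05, from 0.0285 for ASF1A and TYMS to 0.048 for FEN1, as did 16.3% of all genes lower and 2.2% higher. Of 26 genes for the transcription and 3′ end processing of histone mRNA, 17 were tested, 8 with a higher and 9 with a lower mean (median -0.01), and an unadjusted p under 0.05 was reached by 2 higher and 1 lower. The smallest p belonged to MIIP, at 1.02, 0.607 and 2.43 FPKM in Con and 6.84, 3.28 and 2.62 in GLUP (1.15, adjusted p = 0.194). MIIP is an inhibitor of cell migration, and nothing here shows a role in histone mRNA. Its place in this list is doubtful, and the counts above include it. Next was SNRPB, at 74.9, 14.7 and 118 FPKM in Con and 209, 171 and 157 in GLUP (1.78, 0.198). SNRPB encodes a Sm protein of spliceosomal snRNPs that the U7 snRNP of histone mRNA processing shares. Of 31 histone chaperones and deposition factors, 25 were tested, 9 higher and 16 lower (median -0.09), and 1 higher and 5 lower had an unadjusted p under 0.05. ASF1A, which hands H3 and H4 to the complexes that deposit H3.3 and replicative H3, stood at 74.2, 218 and 36.2 FPKM in Con and 19, 20.0 and 18.6 in GLUP (-2.08, SE 0.55, adjusted p = 0.194). SET, a chaperone that also inhibits a phosphatase, stood at 628, 2608 and 464 in Con and 335, 322 and 149 in GLUP (-1.85, SE 0.60, 0.194). In both genes the spread lay in Con, with replicate 2 the highest by far. Without Con replicate 2 the difference was -1.39 for ASF1A, -1.09 for SET and 0.91 for SNRPB. After GC adjustment the differences of these genes were -1.40, -1.45 and 1.53.

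Of 20 S-phase genes, 18 were tested, 7 with a higher and 11 with a lower mean (median -0.08), and an unadjusted p under 0.05 was reached by 2 higher and 1 lower. The smallest p values were those of TYMS, which makes thymidylate (18.8, 21.4 and 8.34 FPKM in Con; 5.58, 6.03 and 5.39 in GLUP; -1.27, adjusted p = 0.194), and FEN1, a nuclease of Okazaki fragment maturation (10.1, 4.72 and 11.7 against 19.6, 16.9 and 16.3; 0.99, 0.198, and 0.64 without Con replicate 2).

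How RNA was selected for the libraries is not stated beyond total RNA. The 13 non-polyadenylated RNAs that matched summed to 12.2, 14.1 and 14.3 FPKM in Con and to 22.5, 28.5 and 35.8 in GLUP. Of the 2 tested, RN7SL2, the RNA of the signal recognition particle, read 10.2, 9.85 and 12.2 against 21.6, 25.8 and 31 (1.20, SE 0.29, adjusted p = 0.194, and 1.29 with 0.0304 without Con replicate 3), and RN7SK had a difference of 0.55 (0.529). RN7SL2 made up most of the sum, and the other 12 summed to 1.96, 4.26 and 2.09 in Con and 0.853, 2.73 and 4.84 in GLUP, with overlap. The part of RNA selection in the levels of the replication-dependent genes was not tested.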

How the data were processed

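RNA from 3 Con and 3 GLUP samples of HGC-27 cells, grouped by sample title, was measured by RNA-seq. The authors deposited FPKM values per gene. The submitters' processing notes name HISAT2, Cufflinks and RSEM and the build GRCh38.p10, without roles or versions, whereas the identifiers of the table carry the suffix of an annotation lifted to GRCh37. The gene lengths behind FPKM and the use of strand are not given in the sources used here. The table held no read counts, so tests for counts were not used and depth is unknown.

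Of 62492 rows, 49 pseudoautosomal copies were summed with their counterparts, and 62162 of the 62443 genes had a symbol. Coordinates, length and GC content came from GENCODE release 44 lifted to GRCh37. The log2 of FPKM + 1 was fitted, for genes averaging 1 FPKM or more, with limma 3.58.1 (lmFit, eBayes with trend; R 4.3.3), two-sided, without covariates, with Benjamini-Hochberg adjustment over all 7406 genes. Differences are on this scale and understate changes of low genes. Genes below the minimum took values from a fit without it. Lists and medians are described without a test. The methods speak of biological replicates but nothing says that these were separate cultures, so p-values measure the spread between these samples, which may be technical. No tested gene had an identical value above 0 in any pair of libraries.

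Members and gene lists were chosen with earlier results of these data known. A variant gene that the rule names is not reported here, and counts of histone genes leave it out. Named genes were all other variant members, the 8 replication-dependent genes of highest mean, their 3 largest positive and 3 largest negative differences, and the 2 smallest p of each list. The GC and length trend was removed per library by loess (span 0.5, degree 1), and rescaling by log ratios left out 30% of genes at either extreme of ratio and 5% of level. The fit was run on simulated data with independent noise of a common spread for all genes and both groups. The libraries here differ from that, so it checks the steps only. Scripts used Python 3.11.15, pandas 2.3.3, numpy 2.4.6 and matplotlib 3.10.9.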

Additional observations from a re-analysis of the deposited data

How the results depend on the processing

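The number of histone genes with an adjusted p under 0.05 (limma) was 0 for replication-dependent and 0 for variant genes under every other setting tried except those leaving out a library: over these it ranged from 0 to 2 for the former and 0 to 1 for the latter, with 2 and 1 without Con replicate 3. Over all genes the count was 0 as reported, 1 when 5 FPKM was the minimum, 1 for eBayes without trend, 2 for GC-adjusted values, and 0 to 1367 when leaving out a library, with 1367 without Con replicate 3 and 3 without Con replicate 2. Same-numbered Con and GLUP libraries did not deviate together (correlations of 0.132, -0.01 and -0.173). With 3 libraries per group this cannot exclude that same-numbered samples were handled together. With the replicate number as a block the count over all genes was 1, and 1 with GC-adjusted values as well. Differences near 0 changed sign: that of H4C3 was 0.28 after rescaling by the trimmed mean of log ratios, 0.27 with the upper quartile, between -0.30 and 0.34 when leaving out a library (0.34 without Con replicate 2), 0.09 without GLUP replicate 1 and 0.08 without GLUP replicate 2; that of H2AC14 was 0.10 and 0.09 under both rescalings, and -0.40 (without Con replicate 1) to 0.07 (without Con replicate 2) when leaving out a library; and that of H1-5 was -0.05 (without Con replicate 1) to 0.47 (without Con replicate 2). H3-3B, H4C14 and H4C8 passed the threshold without Con replicate 3 (-1.66, -1.16 and -1.46). The cause of these changes was not tested. Among the named single genes, 287 of the values under other settings kept direction and side of the threshold. Without read counts, the counting error of the replication-dependent genes at 1 to 10 FPKM is unknown.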
